A study of Mus musculus with 4 samples.

Results

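The 7 genes described here are Prrx1, Prrx2, Twist1, Twist2, Alx1, Alx4 and Lhx6, transcription factor genes best known from the mesenchyme of the limb buds and the head. They were chosen as a family group because the level of Prrx1 differed steeply between esophagus and intestine, so the esophagus and intestine values below describe that choice and support nothing. Every probe whose annotated transcript belongs to 1 of these genes was taken, which gave 10 probes for 7 genes, out of 24338 probes for 16995 named genes on the array. The samples were lung, esophagus, stomach and intestine primordia dissected from ICR mouse embryos at E11.5, the stage at which these organs take shape, with no genetic change or treatment named in the labels. Total RNA of each organ was amplified from a small input, labelled with Cy3 and hybridised to 1 single-colour Agilent array, so there was 1 array per organ and no replicate. The stomach sample carries the word "gustric" in its labels, and the extraction text of all 4 samples names the stomach. Whether embryos were pooled, and which adjoining tissue was removed, is not given in the sources used here.

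A level is the log2 of the scanner's processed signal minus the 75th percentile of the same array, so a level of 0 is that percentile and a difference of 1 between arrays is 2-fold. With 1 array per organ no difference could be tested, and 2-fold was used as a threshold of size. Each member probe was spotted once. The scanner's own error of a well measured member spot was 0.14 to 0.22 on the log2 scale. As a second measure of error, pairs of probes for the same gene disagreed by an SD of 0.51 in the esophagus minus stomach difference, 0.75 in stomach minus intestine and 1.04 in esophagus minus intestine. For lung these SDs were larger, 1.20 against esophagus, 1.1 against stomach and 0.91 against intestine. A probe called not well above background by the scanner has only an upper bound, and its fold is then given as "at least". Levels of different probes are not compared with each other.

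Prrx1 and Prrx2 encode paired-related homeodomain proteins that are made in the mesenchyme of the limb buds and face, where they act redundantly in skeletal patterning. Twist1 and Twist2 encode basic helix-loop-helix (bHLH) proteins that bind E-box sequences as dimers, with each other or with E proteins. Twist1 is required in cranial mesenchyme and neural crest, and Twist2, also called Dermo1, is used as a marker and Cre driver of dermal, lung and gut mesenchyme. Alx1 and Alx4 encode Aristaless-like homeodomain proteins of the frontonasal mesenchyme, and Alx4 also acts at the anterior edge of the limb bud. Lhx6 encodes a LIM homeodomain protein of the first pharyngeal arch and of migrating forebrain interneurons.

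RefSeq sequence upstream of the annotated start (assembly GRCm38.p6) was held for 5 of the 7 genes. It is shown in full for the Twist paralogues, of which only Twist2 had stomach at least 2-fold below both esophagus and intestine. Capitals are reserved for the motifs searched. The Twist1 stretch is chr12:33957421-33957670 on the plus strand and the Twist2 stretch is chr1:91801211-91801460 on the plus strand. Each covers the 250 bases before the start. The RefSeq starts used for Prrx1, Prrx2 and Lhx6, and the windows before them, lie inside the annotated span of each gene. For Prrx1 the 30 bases around its single motif match are shown, at chr1:163313806-163313835 on the minus strand.
Twist1: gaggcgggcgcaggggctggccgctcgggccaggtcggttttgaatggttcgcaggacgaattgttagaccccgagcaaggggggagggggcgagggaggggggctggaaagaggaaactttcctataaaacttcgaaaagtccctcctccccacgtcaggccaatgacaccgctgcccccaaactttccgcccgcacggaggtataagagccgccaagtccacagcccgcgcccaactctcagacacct
Twist2: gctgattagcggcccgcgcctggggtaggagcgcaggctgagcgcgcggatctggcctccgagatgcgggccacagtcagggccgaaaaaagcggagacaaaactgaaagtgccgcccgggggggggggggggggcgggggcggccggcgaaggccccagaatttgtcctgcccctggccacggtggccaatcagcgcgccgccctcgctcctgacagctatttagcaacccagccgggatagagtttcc
Prrx1 site: gcaagggaatgaTAATTAgacctttatttt
The motifs searched on both strands were the homeodomain core TAATTA, the E-box CANNTG, and the E-boxes CATATG and CAGATG, which are special cases of CANNTG. In Prrx1 the capitals mark TAATTA, which began 173 bases before the start, and no E-box was found in its 250 bases. Neither Twist sequence contained any of the 4 motifs, and neither did that of Prrx2 (chr2:30845117-30845366, plus strand). Of the 3 annotated starts of Lhx6, the most upstream (chr2:36105409-36105658, minus strand) had 2 CAGCTG E-boxes, and the other two had none of the motifs. Of 32841 mouse sequences of the same length, 4.84% held TAATTA, 66.2% held CANNTG, 3.47% held CATATG and 14.4% held CAGATG. The GC content of these windows was 47.6% for Prrx1, 62.4% for Twist1 and 68.8% for Twist2, beside a median of 52.4% over all windows.

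The arrays were checked against organ markers, which were chosen with earlier results of these data known. Nkx2-1, Nkx6-2 and Sftpc are named here after their values were seen. Nkx2-1 was highest in lung (level 2.47), Foxd1 and Trp63 in esophagus (1.99 and 0.31), Barx1 and Nkx6-2 in stomach (4.50 and 2.31), and Cdx2 and Nkx2-3 in intestine (1.90 and 2.99). The lung array was dim. Its 75th percentile signal was 32.0 and 39.0% of its spots were well above background, whereas the esophagus, stomach and intestine arrays had 75th percentile signals of 379, 319 and 989 and 67.9% to 74.0% of spots well above background. The lowest level that was well above background was -2.39 on the lung array, -5.75 on the esophagus array, -5.77 on the stomach array and -6.92 on the intestine array, so a weak gene that is measurable in the gut can be below the limit in lung. Tbx4, also chosen as a lung marker, was not well above background in lung. It was at -2.79 in esophagus, a level below the lung limit, so it did not mark the lung array. Sox2, Six2 and Cdx1 were also in the check and are not reported here. All 4 arrays were on 1 slide and in 1 scan. The esophagus array also carried lung and airway markers, with Nkx2-1 at -1.10 and Sftpc at -1.74, while neither was well above background in stomach or intestine. Their part in the member levels was not tested.

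All 7 members were well above background in esophagus and in intestine, 6 of 7 in stomach and 4 of 7 in lung. Over all named genes the shares were 78.1%, 84.0%, 78.7% and 56.0% in the same order. Prrx1, Prrx2, Twist2 and Lhx6 were measured in all 4 organs. Twist1 and Alx4 were not well above background in lung, and Alx1 was not well above background in lung or stomach.

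**Figure D1:**
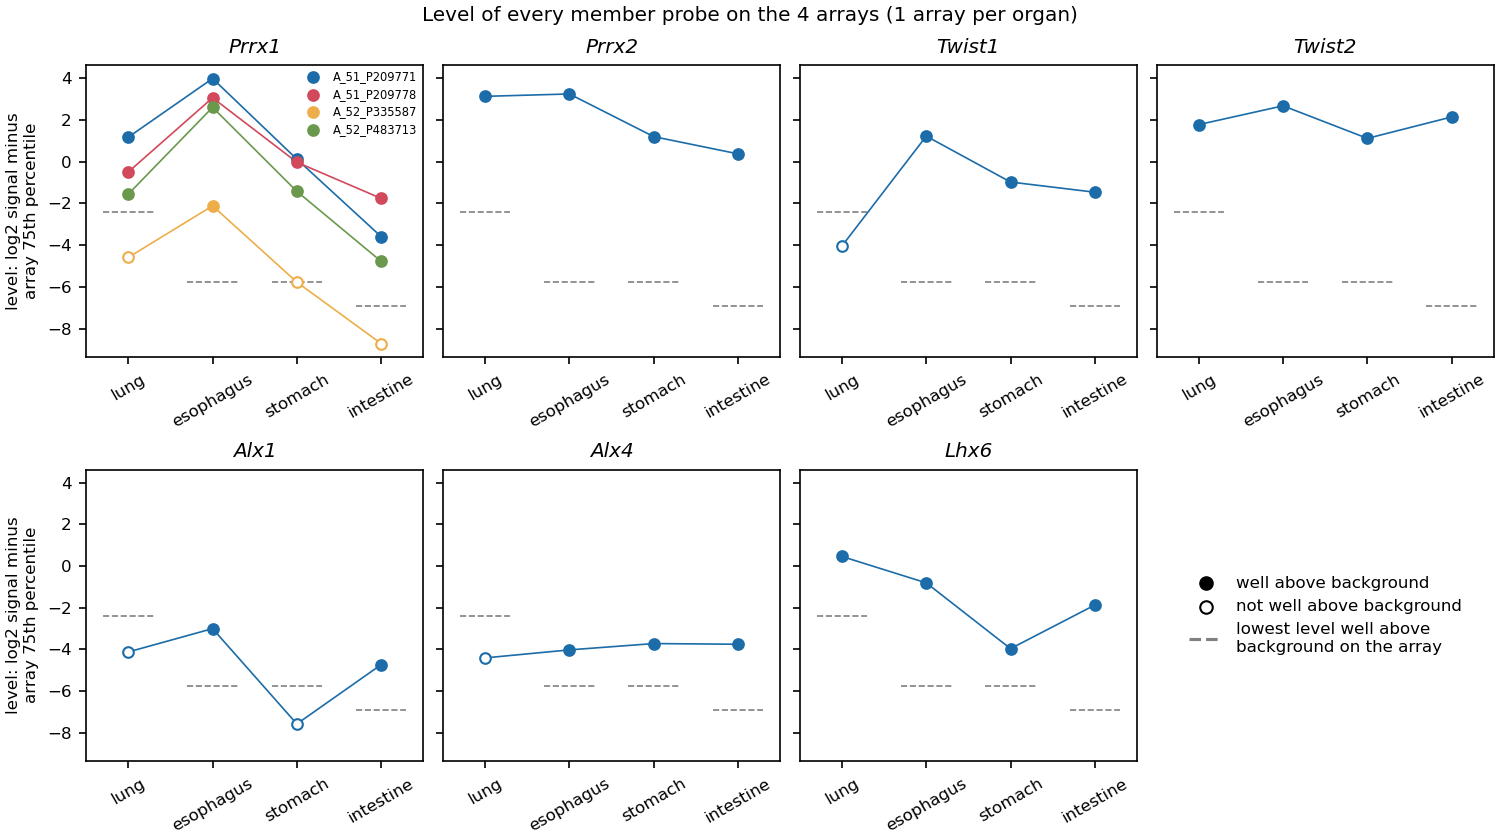
Level of every probe of the 7 genes on the 4 arrays, 1 panel per gene, with the organ on the horizontal axis and log2 signal minus the array's 75th percentile on the vertical axis. Filled points are well above background, open points are not, gray dashes mark the lowest level well above background on each array, and lines join points of 1 probe. All 3 measured Prrx1 probes peak in esophagus (2.61 to 3.99), whereas Lhx6 peaks in lung (0.46) and is lowest in stomach (-3.96).

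Prrx1 was the most uneven member. Its brightest probe, A_51_P209771, had a level of 1.18 in lung, and along the gut its level was 3.99 in esophagus, 0.12 in stomach and -3.59 in intestine. The processed signals behind these levels were 72.3, 6020, 348 and 82.1. In level, esophagus stood above every other organ and intestine was lowest. The step from each organ to the next in this order of levels exceeded 2 scanner errors. In processed signal, intestine (82.1) was above lung (72.3), so the place of intestine below lung rests on the scaling of each array.

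The other Prrx1 probes gave the same top and, along the gut, the same order with different spacing. Probe A_51_P209778 had levels of -0.49 (lung), 3.07 (esophagus), -0.02 (stomach) and -1.76 (intestine). Probe A_52_P483713 had -1.55, 2.61, -1.42 and -4.78 in the same organs. The fourth probe, A_52_P335587, which is annotated to another RefSeq transcript of Prrx1, was well above background in esophagus alone, at -2.11. Over the 3 measured probes Prrx1 was 28.3 to 191 times higher in esophagus than in intestine, the difference for which the genes were chosen. It was 8.51 to 16.3 times higher in esophagus than in stomach and 3.33 to 13.1 times higher in stomach than in intestine. The probes disagreed on lung against stomach: lung was 2.08-fold higher by the brightest probe, and the differences were -0.47 and -0.13 (log2) by the other two, so no order of lung and stomach is given for Prrx1.

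Prrx2 had levels of 3.14 in lung and 3.25 in esophagus. Its level was 1.20 in stomach and 0.38 in intestine. Lung and esophagus were high and differed by less than the scanner error, with a difference of -0.11 (log2, lung minus esophagus, scanner error 0.20). That difference depends on the processing: it was 0.47 with arrays centred on the median and -1.22 with normexp background correction. Prrx2 was 4.13-fold higher in esophagus than in stomach. It was 7.32-fold higher in esophagus than in intestine. The step from stomach to intestine, 1.77-fold, was under the 2-fold threshold but exceeded the scanner error. Prrx2 thus shared the descending order of Prrx1 along the gut with a smaller range.

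Twist1 was measured in the 3 gut segments, at 1.23 (esophagus), -0.97 (stomach) and -1.46 (intestine). In lung it was not well above background, with a processed signal of 1.95 and a measured level of -4.04, below the lung limit. Its level was at least 12.3-fold lower in lung than in esophagus. It was also at least 2.67-fold lower in lung than in stomach, while lung against intestine gave a bound of at least 1.90-fold lower. Esophagus was 4.60-fold higher than stomach and 6.45-fold higher than intestine, and stomach was 1.40-fold higher than intestine. Esophagus thus stood above both other gut segments, and the lung bounds rest on the dim lung array. They also depend on the processing. The bound for lung minus esophagus, -3.62 (log2), was -3.03 with arrays centred on the median and -1.78 with normexp background correction. With normexp no fold could be given for Twist1 in lung against stomach or lung against intestine.

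Twist2 was the flattest of the strongly detected members. Its level was 1.78 in lung and 2.68 in esophagus, with 1.12 in stomach and 2.15 in intestine. Esophagus was 2.95-fold higher than stomach and 1.45-fold higher than intestine, and stomach was 2.04-fold lower than intestine. Intestine and lung, next to each other in the order, differed by less than 2 scanner errors. Unlike the levels of its paralogue, those of Twist2 were high in lung and at least 2-fold lower in stomach than in intestine. With arrays centred on the median in place of the 75th percentile, esophagus and intestine differed by 0.03 (log2), so their order for Twist2 depends on the scaling.

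Alx1 was weak. Its level was -3.0 in esophagus and -4.73 in intestine, with processed signals of 47.3 and 37.2, and it was not well above background in lung or stomach, where the signals were 1.84 and 1.68. Alx1 was at least 6.81-fold higher in esophagus than in stomach and 3.32-fold higher in esophagus than in intestine. It was at least 2.05-fold lower in stomach than in intestine. No fold against lung can be given, because the esophagus and intestine levels lie below the lung limit.

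Alx4 was also weak and nearly even. Its level was -4.02 (esophagus), -3.72 (stomach) and -3.75 (intestine), with processed signals of 23.3, 24.2 and 73.4, and it was not well above background in lung. No neighbours in this order differed by more than 2 scanner errors. It was the member that did not have its highest gut level in esophagus. The difference between esophagus and intestine was -0.27 (log2) and turned to 0.49 with another background correction.

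Lhx6 had a level of 0.46 in lung and -0.81 in esophagus, with -3.96 in stomach and -1.87 in intestine. It was the member with its highest level in lung, 2.40-fold above esophagus and 21.4-fold above stomach. Esophagus was 8.90-fold higher than stomach and 2.09-fold higher than intestine, and stomach was 4.26-fold lower than intestine. Each step in the order lung, esophagus, intestine and stomach exceeded 2 scanner errors. The stomach spot had a processed signal of 20.5 and a scanner error of 0.17. The differences from stomach depend on the processing. With normexp background correction, lung minus stomach was 2.50 (log2) in place of 4.42, and esophagus minus stomach was 1.74 in place of 3.15. Stomach minus intestine was -0.68 in place of -2.09, under the 2-fold threshold.

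The comparison between esophagus and stomach was the most one-sided. Prrx1, Prrx2, Twist1, Twist2, Alx1 and Lhx6, 6 of the 7 members, were at least 2-fold higher in esophagus, and none was 2-fold lower. The background was 5.61% of 13732 named genes at least 2-fold higher in esophagus and 4.29% lower, 9.90% either way. At 4-fold, 5 members were higher, all of these except Twist2, beside 1.57% of named genes. The median difference over the 7 members was 2.20 (log2), and that over all named genes was -0.16. Each of the 6 differences exceeded the SD between probes of a gene, 0.51. With arrays centred on the median, 4.13% of named genes were higher and 7.07% lower, and the same 6 members were higher. This comparison shares the esophagus array with the comparison that chose the genes.

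Between esophagus and intestine, 5 of 7 members (Prrx1, Prrx2, Twist1, Alx1 and Lhx6) were at least 2-fold higher in esophagus and none was 2-fold lower. The background was 11.9% of 13896 named genes higher and 8.72% lower (20.6% either way), or 6.72% and 26.5% with arrays centred on the median. The genes were chosen on this difference, so nothing is read from the count. Lhx6, at 2.09-fold, was the nearest above the threshold, and Twist2, at 1.45-fold, the nearest below it. Lhx6 missed 2-fold with arrays centred on the median (0.56, log2) and with quantile normalization (0.87), which leaves 4 members. With quantile normalization 8.85% of named genes were higher in esophagus and 12.1% lower.

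Between stomach and intestine the members divided. Prrx1 was at least 2-fold higher in stomach (13.1-fold), where 7.53% of 13807 named genes were, and Twist2, Alx1 and Lhx6 were at least 2-fold lower in stomach, where 4.87% of named genes were, 12.4% passing 2-fold either way. Twist2 (2.04-fold) and Alx1 (at least 2.05-fold) lay close to the threshold. The median difference over the members was 0.03 (log2) and that over all named genes 0.04. With arrays centred on the median the shares of named genes were 4.20% higher and 8.96% lower, and with normexp background correction they were 13.3% and 2.0%.

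**Figure D2:**
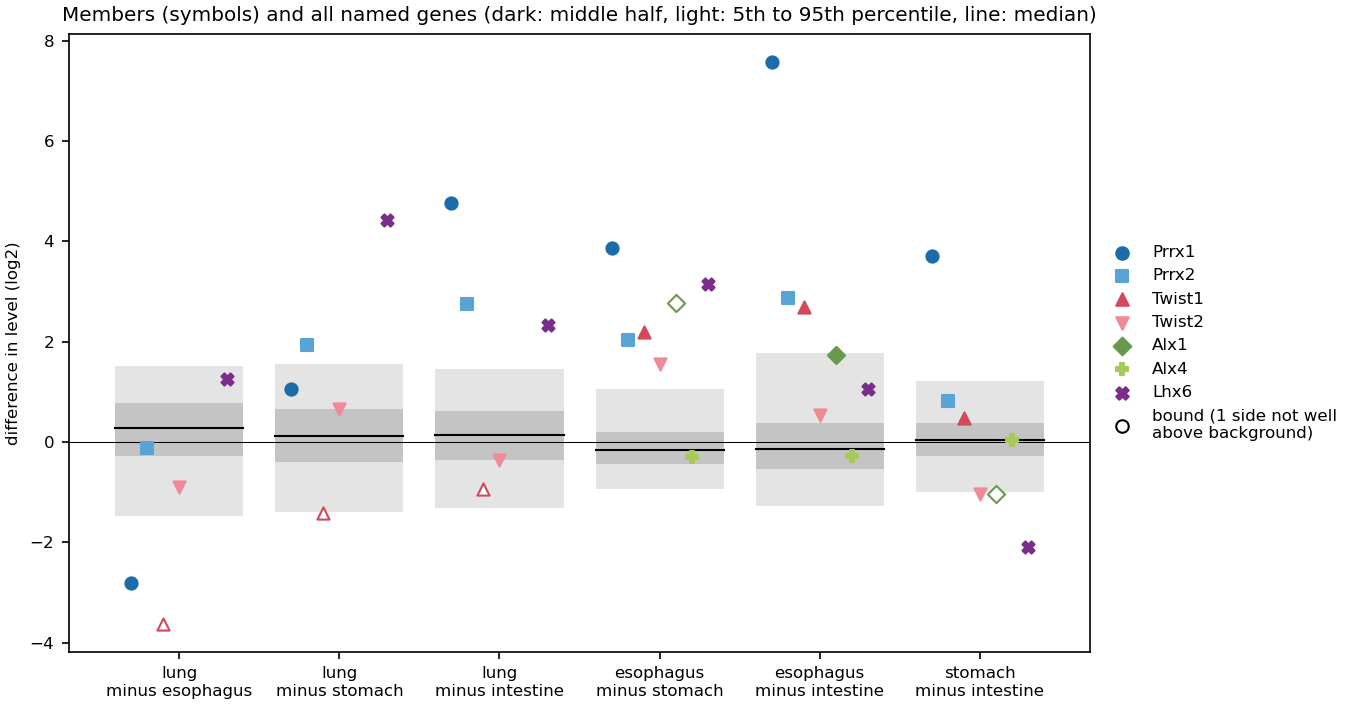
Difference in level between organs (log2, first organ minus second) for the brightest probe of each member, shown as symbols, over the distribution of all named genes, shown as gray bands with the median as a line. Open symbols are bounds and a member with no fold is not drawn. Between esophagus and stomach 6 of 7 members lie above the band that holds the 5th to 95th percentile of named genes, whose upper edge is 1.06, while between stomach and intestine members lie on both sides of 0.

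Against lung, a fold could be given for 5 members, not for Alx1 or Alx4. Lhx6 was at least 2-fold higher in lung than in esophagus, and Prrx1 (7.02-fold) and Twist1 were lower. Lhx6 missed 2-fold with a 75th percentile restricted to probes that every array measured (0.96, log2) and with normexp background correction (0.76). Of 10512 named genes 16.3% were higher in lung and 9.38% lower (25.7% either way), or 45.1% and 4.55% with arrays centred on the median. Prrx1, Prrx2 and Lhx6 were at least 2-fold higher in lung than in stomach and Twist1 was lower, beside 13.9% and 9.89% of 10505 named genes, 23.8% either way. For Prrx1 that call holds by its brightest probe alone. The same 3 genes were higher in lung than in intestine, by 27.2-fold, 6.76-fold and 5.02-fold, and no member was counted as 2-fold lower, though Twist1 has only a bound of 1.90-fold there, beside 12.2% and 8.41% of 10416 named genes, 20.6% either way. The range for Prrx1 over probes in this pair was 2.41 to 27.2-fold. The share of named genes higher in lung than in stomach was 27.8% with arrays centred on the median and 7.89% with normexp background correction, and the share lower in lung was 5.18% and 20.3%. At 4-fold in either direction, 2 of 5 members passed between lung and esophagus (background 3.97%), 1 of 5 between lung and stomach (4.39%) and 3 of 5 between lung and intestine (4.03%). Among the gut segments 5 of 7 passed in esophagus against stomach (2.27%), 3 of 7 in esophagus against intestine (5.64%) and 2 of 7 in stomach against intestine (2.69%). The dimness of the lung array moves with every lung comparison, and its part in them was not tested.

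Along the gut, Prrx1, Prrx2 and Twist1 were highest in esophagus, intermediate in stomach and lowest in intestine, with at least 2-fold between the ends. This order was shown by 3 of 7 members and by 8.65% of 13358 named genes. It was also the kind of order for which Prrx1 was picked. For Twist1 the step from stomach to intestine, 0.49 (log2), was under the SD between probes of a gene, 0.75. That step was 0.19 with arrays centred on the median, so the middle place of stomach is not resolved for Twist1. Twist2, Alx1 and Lhx6 showed another order, with stomach at least 2-fold below both esophagus and intestine, which 0.919% of 13498 named genes had. That pattern was noted after the values were seen. Esophagus was the highest of the 3 gut segments for 6 of 7 members and for 29.0% of named genes. In bulk tissue, fewer cells of a type and less RNA per cell cannot be told apart.

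To compare profiles, each gene's 4 levels were raised to the lowest measurable level of each array and then centred on their own mean. Over the 4 members measured in all organs, Prrx2 had a root mean square (RMS) difference of 1.15 (log2) from both Twist2 and Lhx6, and Twist2 and Lhx6 were 1.37 apart. Prrx1 lay farther off, 1.69 from Prrx2, 2.59 from Twist2 and 2.63 from Lhx6. Distances to Twist1, Alx1 and Alx4 are not ranked, because array limits stand in for their missing levels, and the lung limit lies above the measured esophagus level of Alx1.

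Among 9373 other named genes measured in all 4 organs, the 5 nearest to Prrx1 were Neto1, Myl7, Inhba, Tnnt2 and Ablim3, at RMS differences of 0.84 to 0.97. Myl7 encodes atrial myosin light chain and Tnnt2 cardiac troponin T, Inhba encodes a subunit of activin, and Neto1 an accessory protein of glutamate receptors. Myl7 had levels of 2.58 (lung), 6.06 (esophagus), 0.23 (stomach) and -1.0 (intestine). Inhba had 0.44, 2.15, -0.82 and -2.82. No gene lay as near to Prrx1 as the nearest gene lay to Prrx2, Twist2 or Lhx6. The nearest to Prrx2 was Sfrp2, a secreted Wnt modulator, with levels of 3.81 (lung), 3.90 (esophagus), 1.86 (stomach) and 0.80 (intestine) and an RMS difference of 0.10, followed by Thbd at 0.26.

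For Twist1 the nearest genes were the histone gene H3c1 at 0.32 and Thbs4, a thrombospondin, at 0.39. For Twist2 they were Col6a1, a collagen VI chain, at 0.11 and Tenm3 at 0.18. Col6a1 had levels of 0.61 (lung), 1.22 (esophagus), -0.11 (stomach) and 0.92 (intestine). For Lhx6 they were Kcnk3, a potassium channel, at 0.19 and Lyve1, a hyaluronan receptor of lymphatic endothelium, at 0.47. Kcnk3 had levels of 0.06 (lung), -1.06 (esophagus), -4.05 (stomach) and -1.76 (intestine). Bmp2 and Jph2 were nearest to Alx1, at 0.10 and 0.11, and Ano9 and Il10ra to Alx4, at 0.01 and 0.03. Bmp2 and Jph2 were not well above background in lung or stomach, nor were Ano9 and Il10ra in lung, so these small differences are set in part by array limits that both genes of a pair share. Twist1 likewise entered at the limit in lung, where Thbs4 was not well above background either. Candidates were genes well above background on at least the arrays where the member was, 12686 for Twist1 and Alx4 and 12918 for Alx1. With so many candidates and 4 values per gene, these names describe likeness on these arrays and nothing further.

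Close relatives of the members were not uniformly high in esophagus. Of 15 other paired-type homeobox genes compared, 2 were at least 2-fold higher and 5 lower in esophagus than in stomach, with a median difference of -0.57 (log2). Shox2, a limb and palate gene, was at least 5.12-fold higher in esophagus than in stomach and at least 11.4-fold higher than in intestine. Pitx3 was 4.22-fold and 6.55-fold higher in the same comparisons. Pitx1, a hindlimb and oral gene, had levels of 4.71 in esophagus, 6.29 in stomach and 2.40 in intestine, which puts stomach highest. Isx, an intestinal gene, was at 1.62 in intestine and not well above background in esophagus.

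Relatives of the Twist genes were mostly lower in esophagus. Of 6 other bHLH genes of this class compared between esophagus and stomach, 1 was higher and 4 lower, and between esophagus and intestine 1 of 7 was higher and 5 lower. Hand1 was not well above background in esophagus and was at -3.01 in stomach and 2.80 in intestine. Its level was at least 280-fold lower in esophagus than in intestine. Hand2 was at -0.20 in esophagus, 1.62 in stomach and 1.80 in intestine, 3.99-fold lower in esophagus than in intestine. Msc, a bHLH gene of facial muscle precursors, was the exception, 2.36-fold higher in esophagus than in stomach and 7.64-fold higher than in intestine. The E proteins, which pair with Twist factors, and the Id inhibitors, which capture E proteins, were even: of 7 genes, none was 2-fold higher and 1 (Id4) was lower between esophagus and stomach, and none passed 2-fold between esophagus and intestine. Tcf4 was 1.75-fold and Tcf12 1.66-fold higher in esophagus than in intestine.

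Of 9 LIM homeobox relatives of Lhx6, 2 were higher and 3 lower in esophagus than in stomach, and of 8 compared between esophagus and intestine 4 were higher and 1 lower. Lhx8, the closest relative of Lhx6 and also a first-arch gene, was at -1.85 in esophagus and not well above background in the other 3 organs. It was at least 15.1-fold higher in esophagus than in stomach and at least 33.5-fold higher than in intestine. Lhx2 was at -0.03 in esophagus, -1.81 in stomach and -3.20 in intestine. Lhx9 and Isl2 were 6.16-fold and 11.2-fold lower in esophagus than in stomach. The LIM cofactors were even, with none of 6 at least 2-fold higher in esophagus than in stomach and 1, Lmo1, lower.

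The wider list of head mesenchyme factors was split between esophagus and stomach, with 7 of 23 higher, 6 lower and a median of 0.20 (log2), and less so between esophagus and intestine, with 11 higher and 2 lower and a median of 0.94. Foxd1 was 134-fold higher in esophagus than in stomach and 144-fold higher than in intestine, and Pax9 was 7.62-fold and at least 76.2-fold higher. Barx1, a gene of the stomach mesenchyme and of the face, was 11.9-fold lower in esophagus than in stomach and 38.4-fold higher than in intestine. Msx1 was at -2.70 (esophagus), -1.31 (stomach) and -2.34 (intestine), and Msx2 was at -3.13, -3.73 and -5.40. Dlx1 and Dlx2 were lower in esophagus than in stomach, by 1.80-fold and 2.26-fold, and Dlx5 was 1.74-fold lower. Dlx3 and Dlx4 were not well above background in any organ, and Dlx6 has no named probe.

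Of 21 limb mesenchyme factors compared, 6 were higher and 4 lower in esophagus than in stomach, and 9 were higher and 4 lower in esophagus than in intestine. Tbx5, the forelimb factor that is also used in lung and heart, was at 3.49 (lung), 2.46 (esophagus) and -1.49 (stomach) and was not well above background in intestine. Tbx18 was 22.2-fold higher in esophagus than in stomach, and Tbx4 at least 7.87-fold higher. Of 14 general mesenchyme genes, 5 were higher and none lower in esophagus than in stomach, with a median of 0.82, and 6 were higher and 2 lower in esophagus than in intestine, with a median of 0.46. Tnc was 4.63-fold higher in esophagus than in stomach and 21.0-fold higher than in intestine, and Col1a1 was 2.68-fold and 3.17-fold higher. Among the transcription factors of epithelial to mesenchymal transition, Snai1 was 4.50-fold higher in esophagus than in stomach, and Snai2, Zeb1 and Zeb2 differed by less than 2-fold.

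Among markers of neighbouring tissue, heart and skeletal muscle genes were higher in esophagus. The summed level of somite and cartilage genes was about as high in lung as in esophagus. Fewer of them were well above background in lung (10) than in esophagus (15). Of 12 compared, 1 was at least 2-fold higher and 3 lower in lung than in esophagus, with a median of -0.25 (log2). Of 11 heart muscle genes, all were well above background in esophagus and 10 were at least 2-fold higher there than in stomach and than in intestine, with medians of 5.49 and 6.01 (log2). Their summed level, in units of each array's 75th percentile, was 134 in esophagus, with 9.23 in lung, 3.75 in stomach and 4.26 in intestine. All 7 skeletal muscle genes that could be compared were higher in esophagus in both comparisons, and their summed level was 6.79 in esophagus, with 0.28 in lung, 0.45 in stomach and 0.70 in intestine. Myf5, Myf6 and Ckm were not well above background in esophagus. Of 15 somite and cartilage genes, 8 were higher and 1 lower in esophagus than in stomach, with summed levels of 20.2 (esophagus), 19.7 (lung), 11.51 (stomach) and 12.4 (intestine). Of 10 pharyngeal arch genes, 4 were higher and none lower, with summed levels of 19.1, 12.6, 5.91 and 4.57 in the same organs. Tbx1 was 23.1-fold higher. Matn1, a marker of differentiated cartilage, and Foxn1 and Gcm2, markers of thymus and parathyroid, were not well above background on any array. The part of these tissues in the member levels was not tested.

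**Figure D3:**
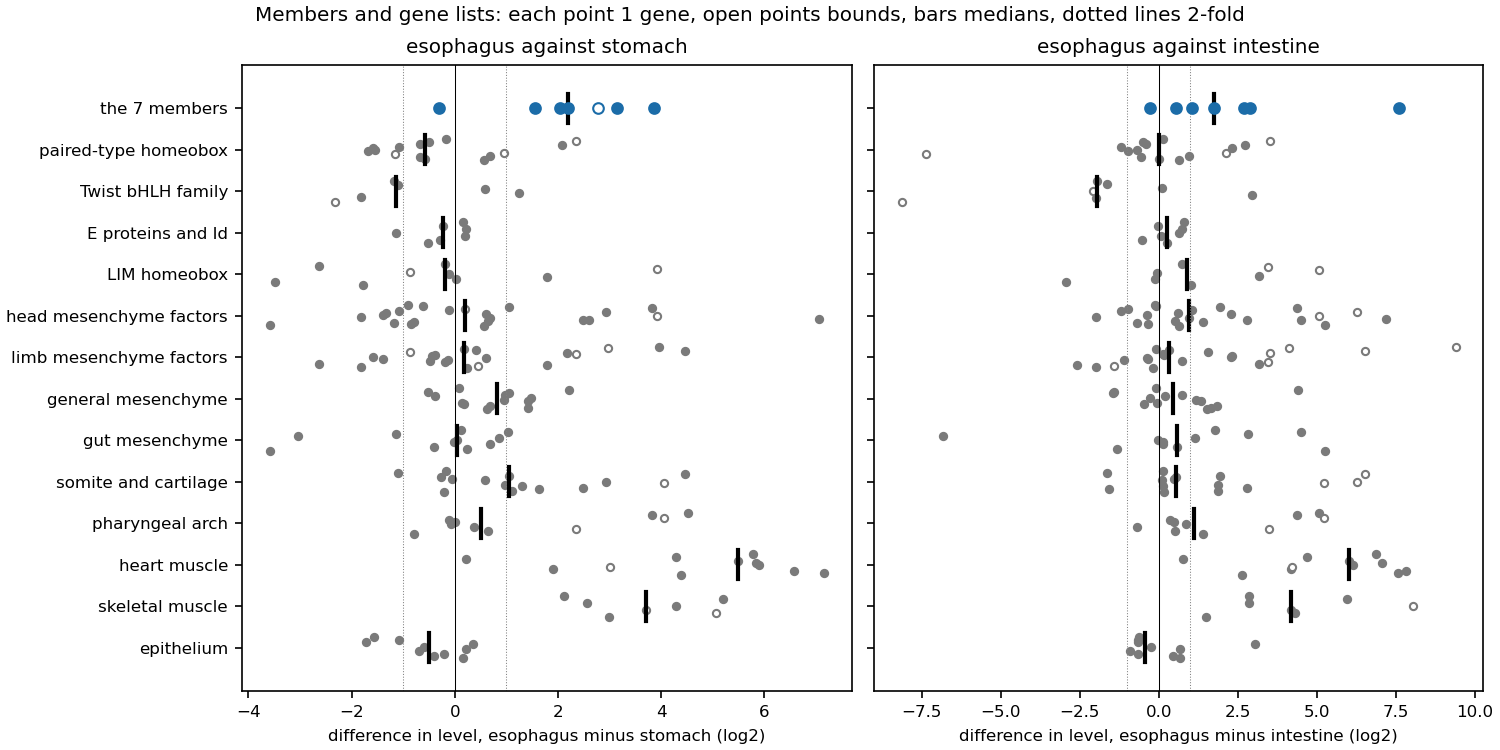
Difference in level (log2), esophagus minus stomach on the left and esophagus minus intestine on the right, for the 7 members in blue and for the genes of 13 related or marker lists in gray. Each point is 1 gene, open points are bounds, bars are medians and dotted lines mark 2-fold. The member median between esophagus and stomach is 2.20, while the medians of heart muscle and skeletal muscle genes are 5.49 and 3.70 and that of the Twist bHLH relatives is -1.14.

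Epithelial genes did not share the pattern. None of 10 was higher and 3 were lower in esophagus than in stomach, with a median of -0.50, and 1 was higher and none lower in esophagus than in intestine, with a median of -0.43. Of 8 neural crest and enteric neuron genes, 1 was higher and 3 lower in esophagus than in stomach, and 2 were higher and none lower in esophagus than in intestine. Of 11 gut mesenchyme genes, 1 was higher and 3 lower in esophagus than in stomach, with a median of 0.05, and 5 were higher and 2 lower in esophagus than in intestine, with a median of 0.56. Nkx2-3, a gene of intestinal mesenchyme, was at -3.83 (esophagus), -0.80 (stomach) and 2.99 (intestine). Endothelial genes differed little, with 1 of 7 higher in esophagus than in stomach. No blood gene passed 2-fold between gut segments other than 1 of 8 that was lower in stomach than in intestine, whereas 7 of 7 were higher in lung than in esophagus.

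**Figure D4:**
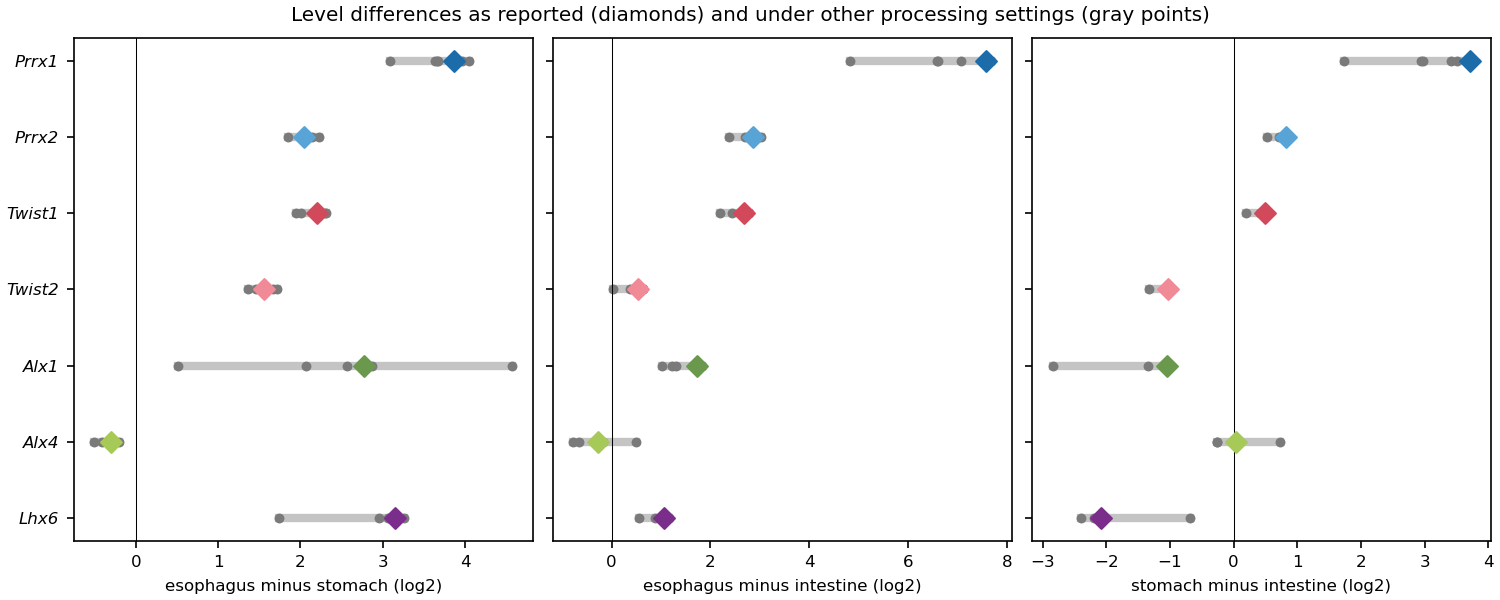
Level difference (log2) of each member for esophagus minus stomach, esophagus minus intestine, and stomach minus intestine, as reported (diamonds) and under other processing settings (gray points, with a bar from lowest to highest). Between esophagus and stomach the values of 6 members stay above 0 under every setting run, with Alx1 ranging from 0.52 to 4.57, and those of Alx4 stay between -0.50 and -0.20.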

How the data were processed

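Expression was measured in 4 samples, 1 array per organ, grouped by the sample titles. The scanner software was Agilent Feature Extraction 10.5.1.1 (protocol GE1_105_Dec08) and the array design was 014868, with build mm8, per the file headers. The deposited scanner files give a linear intensity, the processed signal, from which background was subtracted and spatial trend removed on each array, per the file headers, without scaling across arrays. Values on a log2 scale are in a deposited table of the whole series. They matched the levels computed here (r 0.99996 to 0.99998, column medians -3.56 on the lung array, -2.97 on the esophagus array, -3.17 on the stomach array and -3.47 on the intestine array), and their scale and centring are known from that match only.

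Outlier-flagged spots were left out (69 of 41174 probes lost), copies were averaged, and 24338 of 41105 probes (59.2%) were named by accession through RefSeq GRCm38.p6, which was used for names and promoters and not for array coordinates; 16767 probes had no name. A level is the log2 intensity minus the 75th percentile over non-control probes. A gene's value was its brightest probe's, by mean over arrays. A side not well above background entered at the higher of its own level and the array's lowest level well above background, which gives a bound. No spot was saturated. No test was possible and none was made. The number of arrays limits the precision.

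The members and the 19 gene lists (204 genes, 196 on the array) were chosen with earlier results of these data known. Members are in none of the lists, and some genes are in several. The genes named are all members, up to 4 per list with the largest esophagus against intestine difference, close relatives (Shox2, Lhx8, Hand1, Hand2, Msx1, Msx2 and the Dlx genes), and the 5 genes nearest to Prrx1 and the 2 nearest to each other member by profile. Some genes under this rule are not reported here. Nkx2-1, Nkx6-2, Sftpc, Myf5, Myf6, Ckm, Matn1, Foxn1 and Gcm2 are named as markers beyond that rule, after their values were seen. Alternatives were median, restricted 75th percentile and quantile scaling, normexp background correction with offset 50 (on median signals, since the mean signal that was planned is not used here), the deposited table, filters on dim probes, other probe rules, kept outlier spots and a 4-fold threshold. Python 3.11.15, pandas 2.3.3, R 4.3.3 and limma 3.58.1 were used, and the steps were tested on simulated data.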

Additional observations from a re-analysis of the deposited data

How the results depend on the processing

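No difference has a replicate, so no replicate could be left out. No paired analysis was possible because each organ has 1 array and the results come from no test. Of the counts of members at least 2-fold apart, the lung against stomach count was 4 as reported, 1 (Lhx6) with normexp background correction and 1 at 4-fold. The esophagus against intestine count was 5 and became 3 at 4-fold. The stomach against intestine count was 4 and became 2 with normexp (Prrx1 and Twist2) and 2 at 4-fold (Prrx1 and Lhx6). The count with stomach at least 2-fold below both neighbours was 3 and became 1 (Twist2) with normexp, an alternative run after the data were seen. Prrx1 between esophagus and intestine was 7.58 (log2) as reported, 7.08 with arrays centred on the median, 6.60 with normexp, 6.60 for the mean of its probes and 4.82 for its second brightest probe. Prrx1 between lung and stomach turned from 1.06 to -0.47 with that probe. The cause of these shifts was not tested, except that fewer genes pass a higher threshold. The esophagus against stomach count was 6. It was 5 under normexp and where both arrays had to be well above background (Alx1 lost), and 5 at 4-fold (Twist2 lost). The shares of named genes 2-fold higher and lower in esophagus were 1.97% and 1.25% under normexp. They were 4.63% and 3.40% where both arrays had to be well above background. The 3 genes in descending order were the same under every alternative run. The lung against esophagus count was 2 to 4. Lhx6 was lost and Twist2 gained under the restricted 75th percentile, where 8.17% of named genes were higher in lung and 14.1% lower. Under normexp Lhx6 was lost and Prrx2 and Twist2 gained, beside shares of 8.17% and 14.7%. Twist1 passed 2-fold between lung and intestine under the restricted 75th percentile (-1.14) and without the filter on dim probes (-2.58). With normexp Twist2 passed 2-fold in the same pair, lower in lung (-1.23). The shares of named genes lower in lung than in intestine were 11.7%, 8.79% and 23.3% under these settings in the same order. Differences under 2-fold also changed sign: Prrx2 lung minus esophagus (-0.11) was 0.47 with median centring, Twist2 lung minus stomach (0.66) was -0.14 with normexp, Alx4 esophagus minus intestine (-0.27) was 0.49 with normexp, and Alx4 stomach minus intestine (0.03) was -0.27 with median centring and -0.26 with quantile normalization. Over all values and alternatives, 236 stayed within the tolerance set for calling a value unchanged. The others, fewer but not rare, moved beyond it. Among them 1 was counted as reversed, the Prrx1 difference between lung and stomach with its second brightest probe. Centring on the median shifted the median difference of all genes by 0.59 (lung minus esophagus), 0.39 (lung minus stomach), -0.20 (esophagus minus stomach), -0.50 (esophagus minus intestine) and -0.30 (stomach minus intestine), and normexp shifted the lung comparisons by -0.53 to -0.65. The dim lung array limits what can be said of Alx1, Alx4 and Twist1 in lung.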
